A study of Homo sapiens with 8 samples.

Results

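The 10 genes described here encode the kinases and phosphatases that hold or release the cell cycle when DNA is damaged or not fully replicated: ATM, ATR, CLSPN, CHEK1, CHEK2, WEE1, PKMYT1, CDC25A, CDC25B and CDC25C. They were chosen by name, and every probe set that the platform annotation gives to one of them was taken. This gave 28 of the 54675 probe sets in the deposited table, and each of the 10 genes is among the 14731 genes that could be tested. The cells were HTETOP, a derivative of the human fibrosarcoma line HT1080. Doxycycline shuts off TOP2A, the gene for topoisomerase II alpha, in them. The arrays comprised 1 from cells given doxycycline at 1 µg/ml and 1 from its vehicle control, and 3 from cells given dexrazoxane at 100 µM and 3 from its own vehicle control, each after 24 h. Dexrazoxane is a catalytic inhibitor of topoisomerase II. Each array carried RNA pooled from 3 passages, passages 15 to 17 for the doxycycline pair. The labels do not say that the numbered dexrazoxane arrays came from separate cultures. The p-values then reflect array-to-array spread alone, and this could be technical.

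In this pathway ATM and ATR are the apical kinases, ATM answering mainly to double-strand breaks and ATR to single-stranded DNA at stalled forks. ATM acts through CHEK2, and ATR acts through CHEK1 with the adaptor claspin, the product of CLSPN. The effector kinases restrain the CDC25 phosphatases, which remove inhibitory phosphates from cyclin-dependent kinases, while WEE1 and PKMYT1 place those phosphates on CDK1. Many of these proteins are regulated by phosphorylation and degradation, which an expression array does not measure. In bulk RNA, fewer cells in the phases that express a gene and less RNA of it per cell cannot be told apart.

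Values are log2 expression per probe set, and a difference is always treated minus vehicle on that scale. TOP2A, the check of the labels, stood at 11.98 on the doxycycline vehicle array and 6.02 on the doxycycline array, 62.1-fold lower, and fell by 1.57 with dexrazoxane (12.45 ± 0.09 against 10.88 ± 0.34, SD, n = 3; limma adjusted p = 0.0043 with the replicate number as a block and 0.095 without it). The mesenchymal marker VIM, the highest of 11, stood between 13.23 and 13.87 on all arrays, and the lowest, THY1, between 5.18 and 6.26. The mean of the 11 ran from 9.98 to 10.25 on dexrazoxane vehicle arrays and from 9.94 to 10.24 on dexrazoxane arrays. Of the epithelial markers fixed for this work, CDH1, EPCAM, ESRP1 and KRT19 lay below the filter on low values; of the other 2, KRT8 was called higher with dexrazoxane (0.51, limma paired adjusted p = 0.033) and CLDN4 was not, and the mean of both ran from 7.69 to 7.89 on vehicle and from 8.02 to 8.28 on dexrazoxane arrays. Among leukocyte and endothelial markers 0 of 6 tested genes were called. On dexrazoxane vehicle arrays the leukocyte mean ran from 5.80 to 6.17 and the endothelial mean from 6.02 to 6.31. The leukocyte gene CD3E stood between 6.00 and 7.12 and lay above THY1 on each array. Of 11 mesenchymal markers 0 were called. The part of the KRT8 shift in the results below was not tested. Same-numbered dexrazoxane and vehicle arrays deviated together from their group means, so a fit with the replicate number as a block (the paired fit) stands beside the planned fit without it.

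Promoter sequences are shown first for genes that were called lower in the paired fit, so that a reader can see the letters before their starts. Whether these letters bear on the differences was not tested. The sequences come from a RefSeq table of build GRCh38.p14. It held an entry for 8 of the 10 genes; PKMYT1 and WEE1 are named only. Each run is the 250 bases before a transcription start, 5′ to 3′ on the gene's strand, and capitals mark CCAAT boxes, read as CCAAT on either strand. Where a gene had several starts, the start with the most motif matches is shown, a choice made after the matches were seen.

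CHEK1, chr11:125626106-125626355, plus strand: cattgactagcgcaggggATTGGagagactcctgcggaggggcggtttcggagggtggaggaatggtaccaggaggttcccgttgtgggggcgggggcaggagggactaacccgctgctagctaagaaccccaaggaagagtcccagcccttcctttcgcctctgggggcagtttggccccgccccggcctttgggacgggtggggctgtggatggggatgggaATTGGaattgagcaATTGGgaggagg

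CLSPN, chr1:35769979-35770228, minus strand: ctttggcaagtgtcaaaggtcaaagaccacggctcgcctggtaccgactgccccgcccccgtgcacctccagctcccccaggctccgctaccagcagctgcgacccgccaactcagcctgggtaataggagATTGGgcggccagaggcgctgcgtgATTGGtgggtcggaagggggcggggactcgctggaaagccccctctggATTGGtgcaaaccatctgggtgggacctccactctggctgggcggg

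CDC25C, chr5:138331878-138332127, minus strand: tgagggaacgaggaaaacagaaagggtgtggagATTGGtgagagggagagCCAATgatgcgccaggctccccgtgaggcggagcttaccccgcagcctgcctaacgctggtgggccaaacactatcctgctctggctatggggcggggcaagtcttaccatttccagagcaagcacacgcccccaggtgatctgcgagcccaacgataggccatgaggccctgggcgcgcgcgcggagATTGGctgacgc

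Each of the 3 windows held 3 CCAAT boxes. The other listed starts of CHEK1 held 1 each, and those of CDC25C held 1 or 0. Of all genes with a listed promoter 37.0% had at least 1 CCAAT box in such a window, and of the 8 matched members 7 did, the exception being ATR. For each motif here, a gene with several starts had more windows in which to match. Per start, 12 of 17 member windows held a CCAAT box, against 32.0% of all, and windows of a gene can overlap. CHEK2, which was not called, also held 3, so the count of boxes did not separate called from uncalled members. The cell cycle homology region, read as TTTGAA or TTTAAA on either strand, is an element of genes that peak in G2 and mitosis. It was found before a start of 25.5% of all genes and of 2 members, 1 called and 1 not. The stretches of 30 bases around these matches are given next with TTTGAA in capitals. The match began 30 bases before a second CDC25C start and 20 bases before the ATM start.

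CDC25C, chr5:138331817-138331846, minus strand: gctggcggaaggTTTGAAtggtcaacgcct

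ATM, chr11:108223035-108223064, plus strand: agtcacgcagggTTTGAAccggaagcggga

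An E2F site, read as TTTCCCGC, TTTGGCGC, TTTCGCGC or TTTGCCGC on either strand, was found before a start of 3.4% of all genes and of 1 member, CDC25A, whose match began 44 bases before the start. A GC box, read as GGGCGG on either strand, was found for 46.2% of all genes and for 7 of the 8 members. Per start, it was found in 13 of 17 member windows, against 42.6% of all. A match describes letters only and shows no binding. CCAAT and GC boxes can lie next to each other, as in the CLSPN window, and share letters.

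With dexrazoxane 4 of the 10 genes fell in the paired limma fit and 0 rose. WEE1, CHEK1, CLSPN and CDC25C fell by 0.47, 0.44, 0.40 and 0.35 on the log2 scale, which is 1.39-, 1.36-, 1.32- and 1.27-fold. Over all 14731 genes tested, that fit called 2.44% lower and 2.42% higher. The planned limma fit without the block called 0 members lower and 0 higher, and 0% of all genes in either direction. In that fit CHEK1 and WEE1 were the 2 members at an unadjusted p under 0.05, 0.014 and 0.033, against 2.04% of all genes for lower values and 3.16% for higher ones. The median difference of the 10 genes was -0.22, and that of all genes was 0.02. Differences were negative in each of the 3 pairs for 6 of the 10 members, against 19.4% of all genes, and positive in each pair for 1, ATM, against 25.7%. All dexrazoxane arrays lay below all vehicle arrays for 1 member, CHEK1, against 3.62% of all genes, and above them for 0 members, against 6.53%.

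The arrays also differed by replicate number. Vehicle array 1 was the highest of the 3 vehicle arrays for 8 members, the exceptions being ATM and CHEK2, and dexrazoxane array 1 was the highest of its group for 6. The mean over the 10 members was 8.35, 8.03 and 8.17 on vehicle arrays 1 to 3 and 8.12, 7.87 and 7.95 on dexrazoxane arrays 1 to 3, whereas the mean of all tested genes ran from 7.64 to 7.70 over these 6 arrays. Pair 1 therefore sat higher than the others within both groups, and within each pair the members' mean was lower with dexrazoxane.

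**Figure D1:**
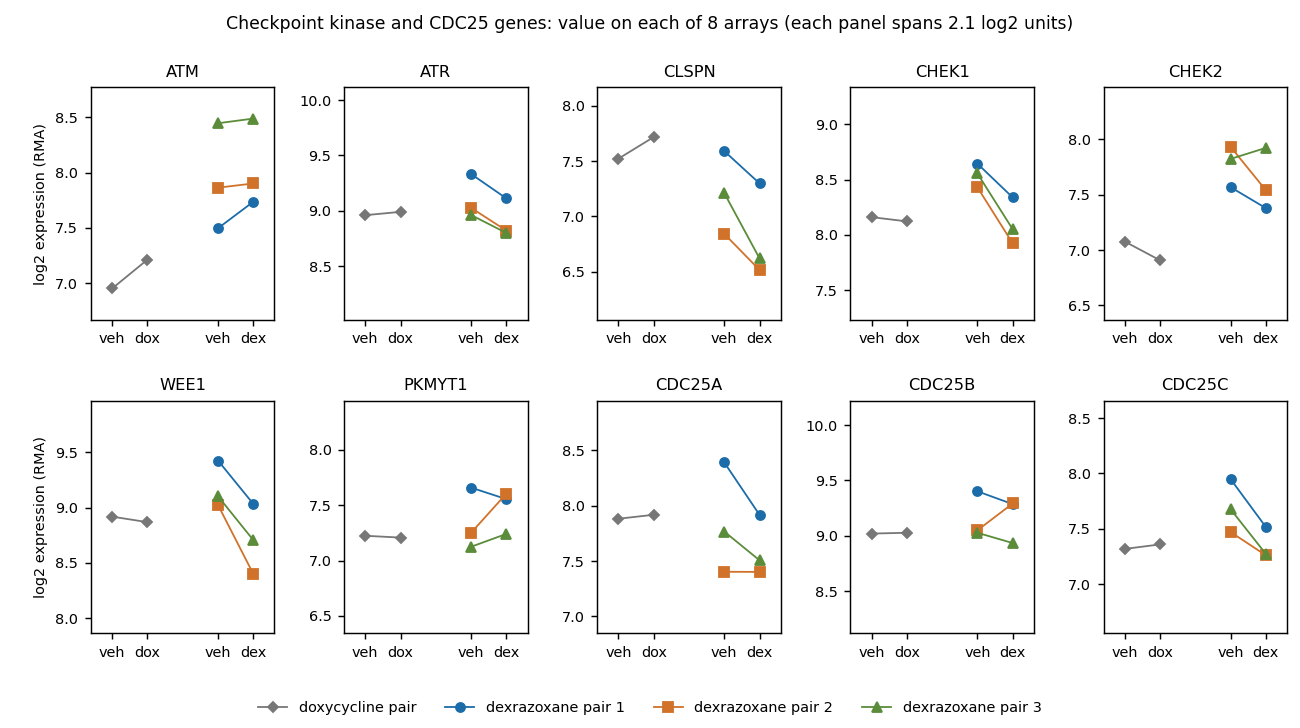
Log2 expression (vertical axis) of each of the 10 genes on the 8 arrays, for the probe set that stands for the gene; veh is vehicle, dox doxycycline and dex dexrazoxane, and lines join same-numbered arrays. The 3 lines that join vehicle to dexrazoxane slope down for WEE1, CHEK1, CLSPN, CDC25C and ATR, and the doxycycline pair changed by at most 0.26 in any panel.

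CHEK1 encodes the effector kinase of the ATR arm, which phosphorylates CDC25A and marks it for degradation. Its probe set 205394_at stood at 8.64, 8.43 and 8.56 on vehicle arrays 1 to 3 and at 8.34, 7.92 and 8.05 on dexrazoxane arrays 1 to 3. Every dexrazoxane array lay below every vehicle array. The difference was -0.44 ± 0.08 (SE, n = 3 pairs; limma adjusted p = 0.025 paired and 0.941 in the planned fit). A second probe set, 238075_at, was also lower without overlap, with -0.18, -0.59 and -0.40 in the pairs, and 205393_s_at had a mean difference of -0.42. The fourth, 229423_at, had a difference of -0.14.

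CLSPN encodes claspin, which brings CHEK1 to ATR at stalled forks. Its probe set 243840_at stood at 7.59, 6.84 and 7.21 with vehicle and at 7.30, 6.52 and 6.62 with dexrazoxane. The groups overlapped, since dexrazoxane array 1 lay above vehicle arrays 2 and 3, and the difference appeared within pairs, as -0.29, -0.33 and -0.59. Its mean was -0.40 ± 0.09 (SE, n = 3 pairs; limma adjusted p = 0.040 paired and 1.000 without the block). The probe set 1553120_at had the widest mean difference of the 28, -0.57, with -0.57, -0.45 and -0.69 in the pairs. Probe set 242150_at had -0.28, with 1 pair above 0, and 219621_at had -0.02, with 2 pairs above 0.

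WEE1 encodes the nuclear kinase that places the inhibitory tyrosine phosphate on CDK1. Its probe set 212533_at stood at 9.43, 9.02 and 9.10 with vehicle and at 9.03, 8.40 and 8.71 with dexrazoxane. Only dexrazoxane array 1 reached the vehicle range, at the level of vehicle array 2. The difference was -0.47 ± 0.08 (SE, n = 3 pairs; limma adjusted p = 0.023 paired and 0.941 in the planned fit). The second probe set, 215711_s_at, stood at 7.63, 7.54 and 7.25 with vehicle and at 7.21, 6.75 and 6.99 with dexrazoxane. These values did not overlap, and their difference was -0.48.

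PKMYT1 encodes the membrane-bound partner of WEE1, which can phosphorylate CDK1 on a threonine as well as a tyrosine. Its single probe set, 204267_x_at, stood at 7.66, 7.25 and 7.12 with vehicle and at 7.55, 7.60 and 7.24 with dexrazoxane. The pairs went in different directions (-0.10, 0.35 and 0.12), and the mean of 0.12 ± 0.10 (SE, n = 3 pairs; 95% interval -0.10 to 0.35) was not called (limma paired adjusted p = 0.507). The suffix _x_at marks a probe set whose probes may also bind other transcripts.

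Among the phosphatases CDC25C, which activates CDK1 at the entry into mitosis, fell in the paired fit. Its probe set 205167_s_at stood at 7.95, 7.47 and 7.68 with vehicle and at 7.52, 7.26 and 7.27 with dexrazoxane. Dexrazoxane array 1 lay above vehicle array 2, and each pair was lower, by -0.43, -0.21 and -0.40. The mean was -0.35 ± 0.08 (SE, n = 3 pairs; limma adjusted p = 0.048 paired and 0.958 without the block). Probe set 217010_s_at had -0.33, and 216914_at had 0.004.

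CDC25A, which acts on CDK2 as well as CDK1, had a difference of -0.24 ± 0.10 that was not called (SE, n = 3 pairs; limma paired adjusted p = 0.193). Its probe set 204695_at stood at 8.39, 7.40 and 7.77 with vehicle and at 7.92, 7.40 and 7.51 with dexrazoxane. Pairs 1 and 3 were lower, by -0.47 and -0.26, and pair 2 was level at -0.001. Probe sets 1555772_a_at and 204696_s_at had -0.31 and -0.10, each below 0 in all 3 pairs.

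CDC25B, the phosphatase thought to start CDK1 activation at the centrosome, had a mean difference of 0.01 ± 0.09 (SE, n = 3 pairs; 95% interval -0.20 to 0.22; limma paired adjusted p = 0.961). Its single probe set, 201853_s_at, stood at 9.40, 9.05 and 9.03 with vehicle and at 9.29, 9.29 and 8.93 with dexrazoxane. Pair 2 was higher by 0.24 and the other pairs were lower, so the groups overlapped throughout.

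The apical kinases were not called. ATR stood at 9.33, 9.03 and 8.96 with vehicle and at 9.11, 8.82 and 8.80 with dexrazoxane on 209903_s_at, with a difference of -0.20 ± 0.07 (SE, n = 3 pairs; limma paired adjusted p = 0.157). It was lower in each pair, by -0.22, -0.21 and -0.16, and its other probe sets had -0.16 and -0.12. ATM was represented by 210858_x_at, which stood at 7.50, 7.86 and 8.45 with vehicle and at 7.74, 7.90 and 8.49 with dexrazoxane. Its difference was 0.11 ± 0.08 (SE, n = 3 pairs; limma paired adjusted p = 0.472), small beside the spread between array numbers. The 6 ATM probe sets did not share a direction: 4 were below 0 and 2 above, from -0.12 for 212672_at to 0.14 for 1570352_at, which lay below the filter. On the mean of its probe sets ATM had a difference of -0.002, so no direction is given for it.

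CHEK2, the effector kinase of the ATM arm, had 1 probe set, 210416_s_at. It stood at 7.57, 7.93 and 7.82 with vehicle and at 7.38, 7.54 and 7.92 with dexrazoxane. Pairs 1 and 2 were lower and pair 3 was higher, and the mean of -0.16 ± 0.10 (SE, n = 3 pairs; 95% interval -0.39 to 0.07) was not called (limma paired adjusted p = 0.389). Copies of parts of CHEK2 lie elsewhere in the genome, and whether they add to this signal was not tested.

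Across all 28 probe sets, 23 were lower on average with dexrazoxane, against 49.4% of the 41097 probe sets with a single gene symbol, and 16 were lower in each of the 3 pairs, against 18.5%. When all those probe sets were tested on their own without a filter, 1 of the 28, CLSPN 1553120_at, was called lower in the paired limma fit (adjusted p = 0.049), against 0.204% of all, and 0 were called higher, against 0.168%. At an unadjusted p under 0.05 there were 13 of the 28, all lower, against 7.22%. The values did not overlap for 3, all lower, against 4.05%: CHEK1 205394_at and 238075_at and WEE1 215711_s_at. Without the block 0 were called and 6 were at an unadjusted p under 0.05, all lower, against 1.85%. Of the 28 probe sets 25 passed the filter; 1570352_at and 1553387_at of ATM and 233288_at of ATR did not. Probe sets of a gene share its RNA and are not independent. Every probe set was lower on average for CHEK1, CLSPN, WEE1, CDC25A and ATR, and for CHEK2 with its single one.

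**Figure D2:**
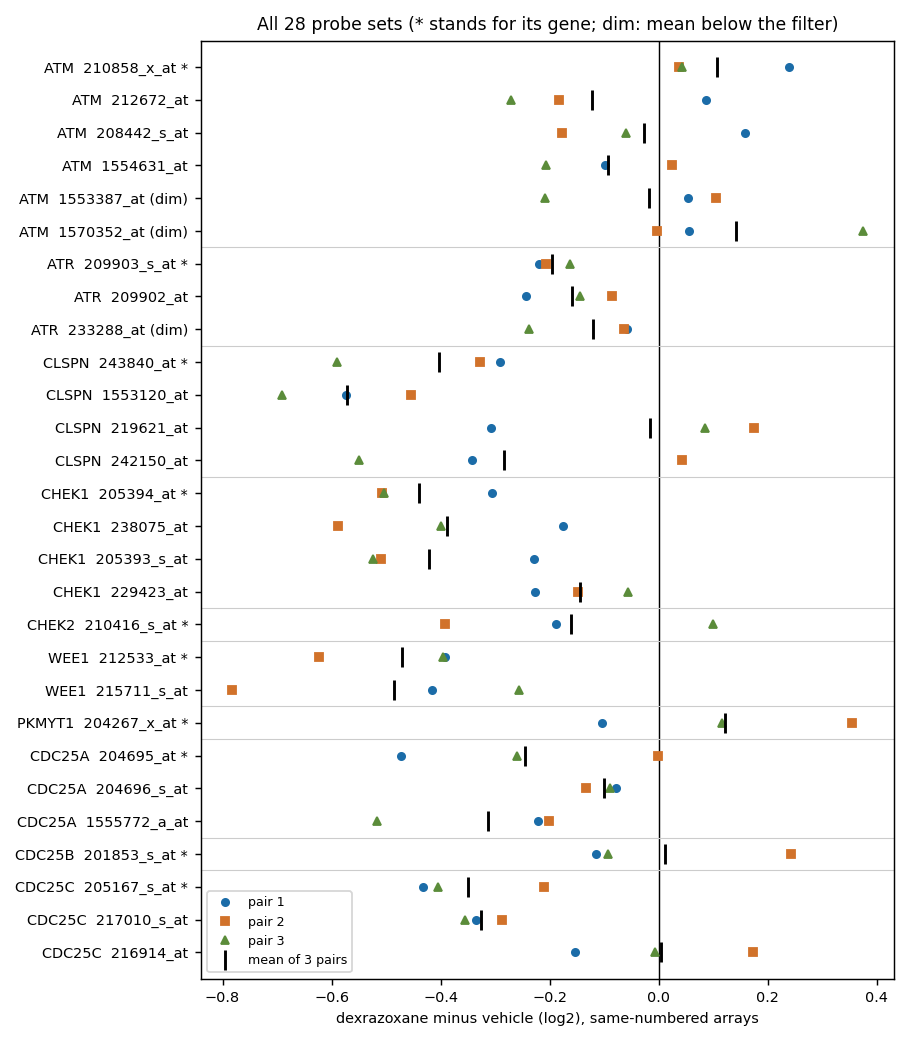
Difference between same-numbered dexrazoxane and vehicle arrays (log2, horizontal axis) for all 28 probe sets of the 10 genes, by pair, with a bar at the mean of 3 pairs. CHEK1 and WEE1 probe sets lie to the left of 0 in every pair, the 6 ATM probe sets lie on both sides, and CDC25C 216914_at lies near 0 unlike the other CDC25C probe sets.

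The profile of WEE1, the member with the largest difference, was set against that of every other tested gene over the 6 dexrazoxane and vehicle arrays, each gene centred on its own mean. The root mean square distance was lowest for MELK, a mitotic kinase gene (0.040), MDM1 (0.049), the DNA glycosylase gene NEIL3 (0.055), the nuclear pore gene NUP107 (0.063) and SUSD4 (0.065), and the median over all other genes was 0.364. In this order CHEK1 was number 41, CDC25C number 139, CLSPN number 252, ATR number 552, CDC25A number 1021, CDC25B number 5064, PKMYT1 number 8264, CHEK2 number 9187 and ATM number 14334. Within the members the closest profiles were those of PKMYT1 and CDC25B (0.074) and of CHEK1 and WEE1 (0.099). All 6 arrays contribute to these distances, replicate number included.

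Genes that work with the switch were read from lists taken from general knowledge, with earlier results of these data known. Of 14 partners in mitotic entry 8 fell in the paired limma fit and 0 rose, with a median of -0.34. Over all genes tested, that fit called 2.44% lower and 2.42% higher. CDK1, the kinase on which WEE1 and CDC25C act, stood at 11.25, 10.76 and 10.85 with vehicle and at 10.72, 10.23 and 10.33 with dexrazoxane, a difference of -0.53 ± 0.07 (SE, n = 3 pairs; limma paired adjusted p = 0.012). CCNA2 and CCNB1, its cyclins, fell by 0.62 and 0.40, and AURKA, which with BORA activates PLK1, by 0.38. On the mean of probe sets CDK1 had -0.58 and AURKA -0.38, and neither was called (limma paired adjusted p = 0.103 and 0.080). On specific probe sets (without an _s_at or _x_at suffix) AURKA had -0.37 and was not called either (limma paired adjusted p = 0.550). The transcription factor genes FOXM1 and MYBL2 and the kinase gene PLK1 were among the 6 not called (-0.14, -0.12 and -0.14; chosen after their values were seen).

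Of 17 damage sensors and adaptors, with a median of -0.14, 3 fell and 0 rose, against 2.44% and 2.42% of all genes. RAD1, a clamp subunit that activates ATR, stood at 9.55, 9.52 and 9.64 with vehicle and at 9.07, 9.12 and 9.09 with dexrazoxane, a difference of -0.47 ± 0.07 (SE, n = 3 pairs; limma paired adjusted p = 0.018), and the groups lay apart. That probe set carries the _x_at suffix, and on a specific probe set RAD1 had -0.19 and was not called (limma paired adjusted p = 0.217). TOPBP1, the activator of ATR that this clamp recruits, and RHNO1, which binds the clamp, fell by 0.40 and 0.38. MRE11, the nuclease of the complex that recruits ATM, had -0.29 and was not called (limma paired adjusted p = 0.088). Of 10 interphase CDK partners, with a median of -0.10, 2 fell and 0 rose, against the same shares of all genes. They were the cyclin gene CCNE2 (-0.61) and CDK6 (-0.32, limma paired adjusted p = 0.049; 0.058 on specific probe sets), while CDK2 and CCNH had -0.26 and -0.16.

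Other partners went the opposite way or did not pass the test. Beside the counts below stand 2.42% of all genes called higher and 2.44% called lower in the paired limma fit. Of 9 phosphatases that can end a checkpoint, 1 rose and 0 fell, with a median of 0.11. It was PPM1D, the p53-induced phosphatase that acts on ATM and CHEK1 targets, at 8.19, 7.98 and 8.23 with vehicle and at 8.76, 8.51 and 8.50 with dexrazoxane (0.46 ± 0.09, SE, n = 3 pairs; limma paired adjusted p = 0.029). PPP2CB, PPP1CA and PPP1CC, catalytic subunits of general phosphatases, had 0.20, 0.22 and -0.15. Of 14 genes for turnover factors and 14-3-3 proteins, which bind phosphorylated CDC25, 1 rose and 0 fell, with a median of 0.01. It was SFN, the p53-induced 14-3-3 sigma (0.49 ± 0.09, SE; limma paired adjusted p = 0.031). YWHAE had 0.24, USP28 -0.24 and BTRC, a subunit of the ligase that degrades CDC25A and WEE1, 0.09.

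Of 9 tested genes of the p53 arm, with a median of 0.32, 5 rose and 0 fell, against 2.42% and 2.44% of all genes. CDKN1A, the inhibitor of cyclin-dependent kinases, stood at 9.98, 10.53 and 10.46 with vehicle and at 10.60, 11.05 and 10.77 with dexrazoxane, a difference of 0.48 ± 0.09 (SE, n = 3 pairs; limma paired adjusted p = 0.024). MDM2, PLK3 and SESN1 rose by 0.58, 0.43 and 0.42, and GADD45A, the fifth, by 0.32 (limma paired adjusted p = 0.0498, named after its value was seen). The calls of MDM2 and PLK3 were lost with the mean of their probe sets (0.31 and 0.18; limma paired adjusted p = 0.063 and 0.173), and that of MDM2 also with specific probe sets (0.41; limma paired adjusted p = 0.055). None of the genes on these 6 lists was called in the limma fit without the block, 0 of 73. That fit called 0% of all tested genes in either direction, so this count does not set the lists apart from other genes.

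**Figure D3:**
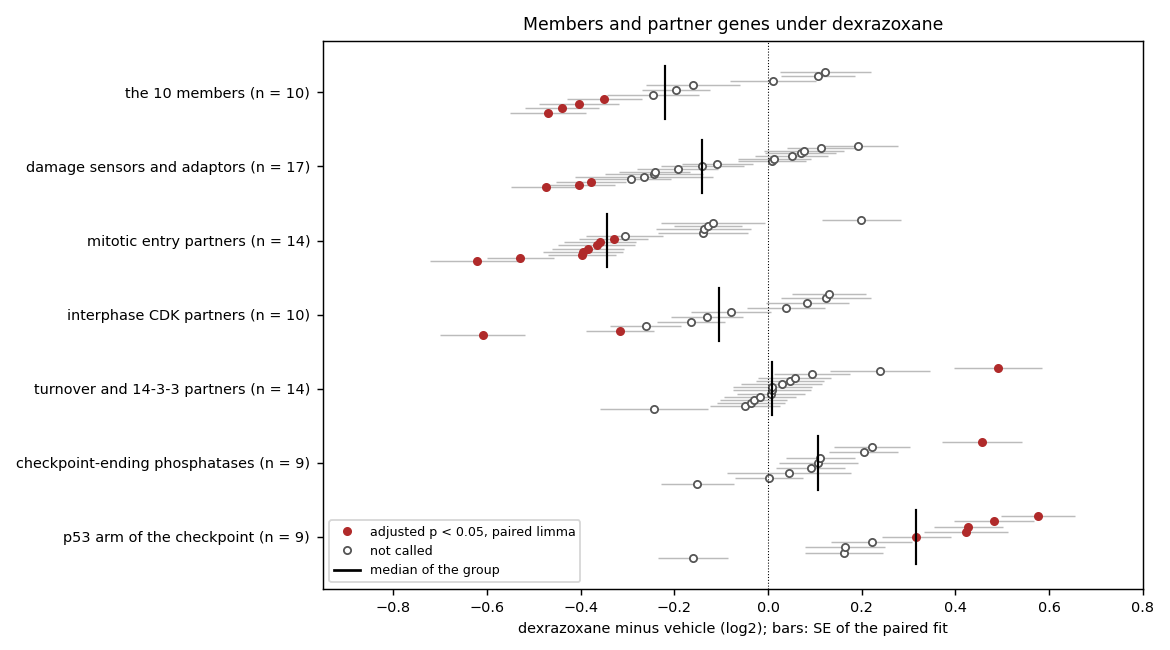
Dexrazoxane minus vehicle (log2, horizontal axis) with the SE of the paired fit for the 10 members and for 6 lists of partner genes; filled points have a limma paired adjusted p under 0.05 and black bars are medians. The medians run from -0.34 for mitotic entry partners to 0.32 for the p53 arm, with the members at -0.22.

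In the doxycycline pair, in which TOP2A itself was silenced, none of the 10 genes differed by 1.5-fold, against 0.0272% of all genes higher and 0.102% lower by that much. There is 1 array per group, so no difference in this comparison has an error or a test. CHEK1 stood at 8.16 with vehicle and 8.12 with doxycycline, WEE1 at 8.92 and 8.87, CDC25C at 7.32 and 7.36, CDC25A at 7.88 and 7.92, ATR at 8.96 and 8.99, CDC25B at 9.02 and 9.03, and PKMYT1 at 7.22 and 7.21. These 7 genes differed by 0.05 or less. The larger differences were those of ATM (6.95 and 7.21, 0.26), CLSPN (7.52 and 7.72, 0.20) and CHEK2 (7.08 and 6.91, -0.17). A difference at least as large in size as that of ATM was seen in 6.23% of all tested genes. On the deposited values 4 members were below vehicle, against 40.7% of all genes, and 6 were above, against 54.4%. The remaining genes had equal values on both arrays. So did the member probe sets CHEK1 238075_at (8.01) and CLSPN 219621_at (4.65), and the reason was not tested. The median of the members was 0.02, like that of all genes, 0.02.

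For CLSPN the probe sets did not share a direction with doxycycline, since 243840_at had 0.20 and the other 3 lay between -0.14 and 0.00. The ATM probe sets ran from -0.10 to 0.27. A further quantile normalization of the doxycycline pair turned the sign of CDC25A, CDC25B and CDC25C, to -0.01, -0.02 and -0.01, so no direction is given for these. The counts of members above and below vehicle given before include these genes and depend on the scaling. Side by side, the 4 genes that fell with dexrazoxane had 0.20 (CLSPN), 0.04 (CDC25C), -0.04 (CHEK1) and -0.05 (WEE1) with doxycycline. Whether the 2 treatments differ in their effect on these genes was not tested, because the doxycycline comparison has no replicates.

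**Figure D4:**
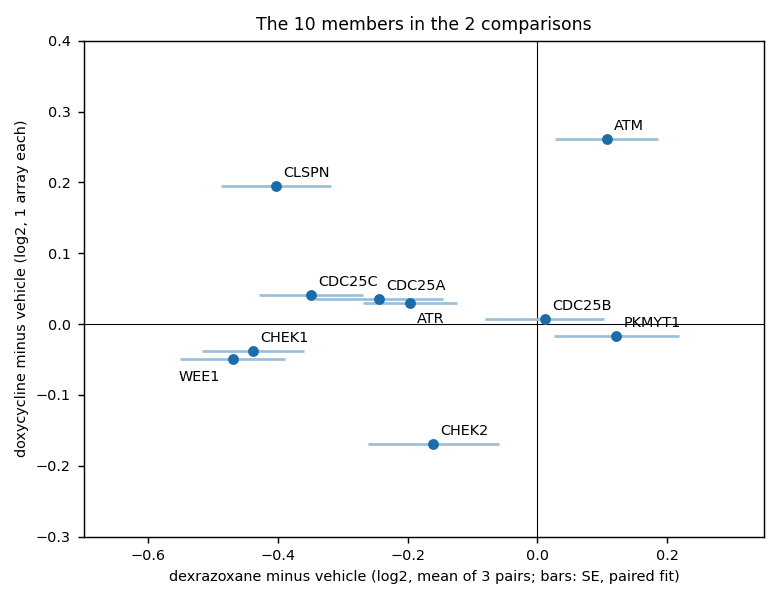
Doxycycline minus vehicle (log2, 1 array each, vertical axis) against dexrazoxane minus vehicle (log2, mean of 3 pairs with the SE of the paired fit, horizontal axis) for the 10 genes. WEE1, CHEK1 and CDC25C lie between -0.05 and 0.04 on the doxycycline axis while lying at -0.35 or lower on the other.

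The calls rested on few arrays. Each fit without a pair had fewer arrays, and the share of all genes that it called is not given here. A lost call is therefore not shown to be particular to the members. Without pair 1 the paired limma fit called 0 members lower, and WEE1, CHEK1, CLSPN and CDC25C then had differences of -0.51, -0.51, -0.46 and -0.31 with adjusted p of 0.079, 0.066, 0.098 and 0.186. Without pair 3 it called 1, WEE1, and without pair 2 it called 5, the same 4 genes and CDC25A (-0.37, limma adjusted p = 0.045). Of the 15 called list genes named above by the rule, 14 lost their call without pair 1, the exception being CCNE2, and 7 without pair 3; without pair 2 all 15 kept it. CDC25C rested on the choice of probe set as well: with probe sets that carry no _s_at suffix it was represented by 216914_at and had 0.004.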

How the data were processed

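Expression was measured on 8 Affymetrix arrays. The deposited log2 values per probe set were made by the authors with RMA, which corrects background, equalises intensity distributions and summarises probes, per the submitters' processing notes; its version, and whether all arrays were run together, are not given in the sources used here. Array medians were 4.81 and 4.82 for the doxycycline pair and 5.49 to 5.57 for the others, so levels were not compared between the comparisons. The number of arrays limits the precision.

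Gene symbols came from the array annotation and were updated through a RefSeq gene table: 41097 probe sets carried 1 symbol, 1801 several and 11777 none there. Each of 19775 genes was represented by its probe set of highest mean across arrays, and a floor at the 40th percentile (4.83) left 14731 genes to test. The dexrazoxane test was limma 3.58.1 under R 4.3.3, two-sided, with Benjamini-Hochberg adjusted p under 0.05 as a call, run without a block as planned and with the replicate number as a block. The pairing comes from a check in the data: deviations from group means correlated at 0.82, 0.57 and 0.72 between same-numbered arrays. The doxycycline pair was given as values. The procedure was also run on simulated arrays, and the outcome is not given here. Those arrays were built with the paired structure, so that run cannot show whether the block is right for the real arrays.

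The members and lists were chosen with earlier results of these data known. Named genes were all members, TOP2A, the 4 genes of each list with the smallest paired p, and the 5 genes nearest to the leading member. Alternatives covered the filter, the probe set rule, normalization, the variance model and leaving out arrays.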

Additional observations from a re-analysis of the deposited data

How the results depend on the processing

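With the replicate block the count of members called lower went from 0 to 4; no member was called higher in any setting run. Without the block it stayed at 0 in all alternatives, single arrays left out included. In the paired fit it was 2 with no filter and again 2 on averaged probe sets (CHEK1 and WEE1 in each), 1 with every probe set above the filter tested on its own, counting the probe set that stands for each gene (WEE1; CLSPN 1553120_at, which does not stand for its gene, was called as well), and 0 to 5 when 1 pair was left out; it was 3 with specific probe sets, where CDC25C lost its call. No filter and every probe set raise the number of features tested, and they also changed the SE. For CHEK1 the paired SE was 0.079 in the main fit, 0.083 with no filter and 0.082 with every probe set. The cause of the lost calls was not tested in any setting. The share of all genes called in these alternatives is not given here, so the counts describe the members only. The 4 calls were kept with the 60th percentile filter, median centring, a further quantile normalization, and trended, robust variance. Signs turned for ATM, which was not called, on averaged probe sets (-0.0018) and specific probe sets (-0.12), with and without the block, and when single arrays were left out without the block (-0.12 to 0.36). They turned for CDC25C with specific probe sets in both fits (0.0039), for CDC25A when single arrays were left out without the block (-0.47 to 0.024), for CDC25B when an array (-0.055 to 0.13) or a pair (-0.10 to 0.075) was left out, and for USP28 in the paired fit with specific probe sets (0.0024). No member passed 1.5-fold with doxycycline in any alternative. Of the 15 called list genes named by the rule, 9 lost their call with every probe set on its own. The call was lost by 4 each with averaged probe sets, specific probe sets and no filter, and by 1 with a further quantile normalization. The called list genes outside the rule, CKS2, BORA, MASTL, CKS1B and GADD45A, are not in these counts. Their limma paired adjusted p ran from 0.040 to 0.0498, so the counts leave out calls near the bound. For other named genes in the paired fit, 278 values under alternatives held, 74 lost the call, 5 gained it and 1 turned.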
